A study of Mus musculus with 8 samples.

Results

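Neutrophil granule and S100 genes were followed in CT26 tumors as 10 genes, namely S100a8, S100a9, Ly6g, Mpo, Elane, Ltf, Camp, Lcn2, Ngp and Mmp8. Members were all mouse probes on the array that carry 1 of these gene names, which gave 12 probes of 56567, or 10 gene names of 37058. Mpo and Lcn2 each had 2 probes, and a gene is represented below by its brightest probe. CT26 is a colon carcinoma line of BALB/c mice. Tumors were grown under the skin from 500000 implanted cells and treated for 2 weeks. The groups received vehicle, TP-16 (labelled BY001, 75 mg/kg given orally once a day), anti-PD-1 antibody injected into the peritoneum 2 times per week at 50 µg per mouse, or both agents, here called the combination. TP-16 is an antagonist of EP4, a receptor of prostaglandin E2, and the antibody blocks the T-cell receptor PD-1. Each group had 2 arrays, 8 in all, and whether tumors were pooled within a sample is stated neither in the labels nor in the methods. The methods describe the purchased mice as female and 6 to 10 weeks old.

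Neutrophils are made in the bone marrow and fill their granules in a fixed order. Contents of the primary (azurophil) granules, such as myeloperoxidase and neutrophil elastase, are transcribed in early precursors, those of the secondary and tertiary granules in later ones, and most of these transcripts are low by the time the mature cell reaches a tissue. S100A8 and S100A9, by contrast, form a calcium-binding heterodimer (calprotectin) in the cytosol, are transcribed in mature neutrophils and in monocytes, and are also produced by stressed keratinocytes.

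Whole tumors were measured, so that fewer cells of a type and less RNA per cell cannot be told apart. Values are log2 intensities minus the 75th percentile of the same array, which is 0 on this scale, and they compare arrays for 1 probe but not 1 probe with another. The slide (1) and the scan (1) were common to all arrays, but antibody treatment coincided with the slide row and TP-16 treatment with the slide columns, so these cannot be told apart. The 75th percentile lay between 575 and 849 intensity units in the 6 vehicle and single-agent arrays and at 926 and 1124 in the combination arrays. Its part in the results was not tested. The epithelial marker Krt18 was well above background on all 8 arrays, whereas Epcam reached this level on 1 array only.

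The members differed in how well they could be read. S100a8, S100a9, Mpo, Elane, Camp, Lcn2 and Mmp8 were well above background on all 8 arrays. Ltf was so on 3 arrays (TP-16 replicate 1 and both combination arrays) and Ly6g, the surface protein by which mouse neutrophils are usually identified, only on the 2 combination arrays. Ngp, a secondary granule protein related to cathelicidin, was above background on 0 arrays and was not tested. Its values ran from -7.71 to -5.19 and only bound the level from above. The second Mpo probe, above background on vehicle replicate 2 alone, was not tested either. In sum, 9 members entered the tests among 21497 genes.

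S100a8 and S100a9 are neighbors on chromosome 3, with 0 protein-coding genes between them in the RefSeq annotation and 22.7 kb between their probes. On the array they were read at chr3:90473778-90473837 and chr3:90496573-90496632 of the mm9 build. The array annotation does not give the exon or UTR of a probe. Since these are the members that moved together, the 250 bases before the RefSeq start site of each are shown, 5′ to 3′ on the strand of the gene, in the GRCm38.p6 build. Capitals mark the motifs that were searched and found.
S100a8 (chr3:90668821-90669070, plus strand): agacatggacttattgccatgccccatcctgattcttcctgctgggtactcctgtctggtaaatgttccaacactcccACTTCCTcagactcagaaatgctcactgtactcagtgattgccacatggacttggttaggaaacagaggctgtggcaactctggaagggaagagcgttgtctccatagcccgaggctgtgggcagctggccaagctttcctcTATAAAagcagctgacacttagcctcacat
S100a9 (chr3:90695722-90695971, minus strand): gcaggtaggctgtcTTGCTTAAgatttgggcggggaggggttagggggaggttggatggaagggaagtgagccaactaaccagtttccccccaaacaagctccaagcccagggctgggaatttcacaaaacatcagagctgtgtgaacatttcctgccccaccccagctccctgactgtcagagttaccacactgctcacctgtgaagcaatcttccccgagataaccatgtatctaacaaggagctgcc
Lcn2 (chr2:32387740-32387989, minus strand): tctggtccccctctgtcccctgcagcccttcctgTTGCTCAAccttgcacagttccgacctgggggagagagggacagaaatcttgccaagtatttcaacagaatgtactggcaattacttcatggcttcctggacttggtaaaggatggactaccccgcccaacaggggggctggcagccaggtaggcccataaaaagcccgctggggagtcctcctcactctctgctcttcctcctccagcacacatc
Lcn2 is shown beside the pair because it took a different course across the groups. In S100a8 the capitals mark ACTTCCT, the reverse complement of AGGAAGT (the core bound by PU.1), 172 to 166 bases before the start, and a TATA box (TATAAA) 30 to 25 bases before it. The capitals in S100a9 and Lcn2 are matches to the C/EBP motif TTNNGCAA, which is read on both strands, at 236 to 229 and 216 to 209 bases before the start. This motif occurred upstream of 6 of the 10 members (S100a9, Ly6g, Ltf, Lcn2, Ngp and Mmp8) and in 9.56% of 32851 RefSeq upstream regions of this length. AGGAAGT occurred in 5 members (S100a8, Ly6g, Mpo, Elane and Mmp8) and in 7.69% of all regions. The cAMP response element TGACGTCA and its core TGACG, searched because EP4 signals through cAMP, matched upstream of 0 members and in 1.55% and 17.8% of all regions. STAT (TTCNNNGAA) and AP-1 (TGANTCA) motifs also matched 0 members, against 7.02% and 6.75%. A match describes the letters and not a bound site.

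**Figure D1:**
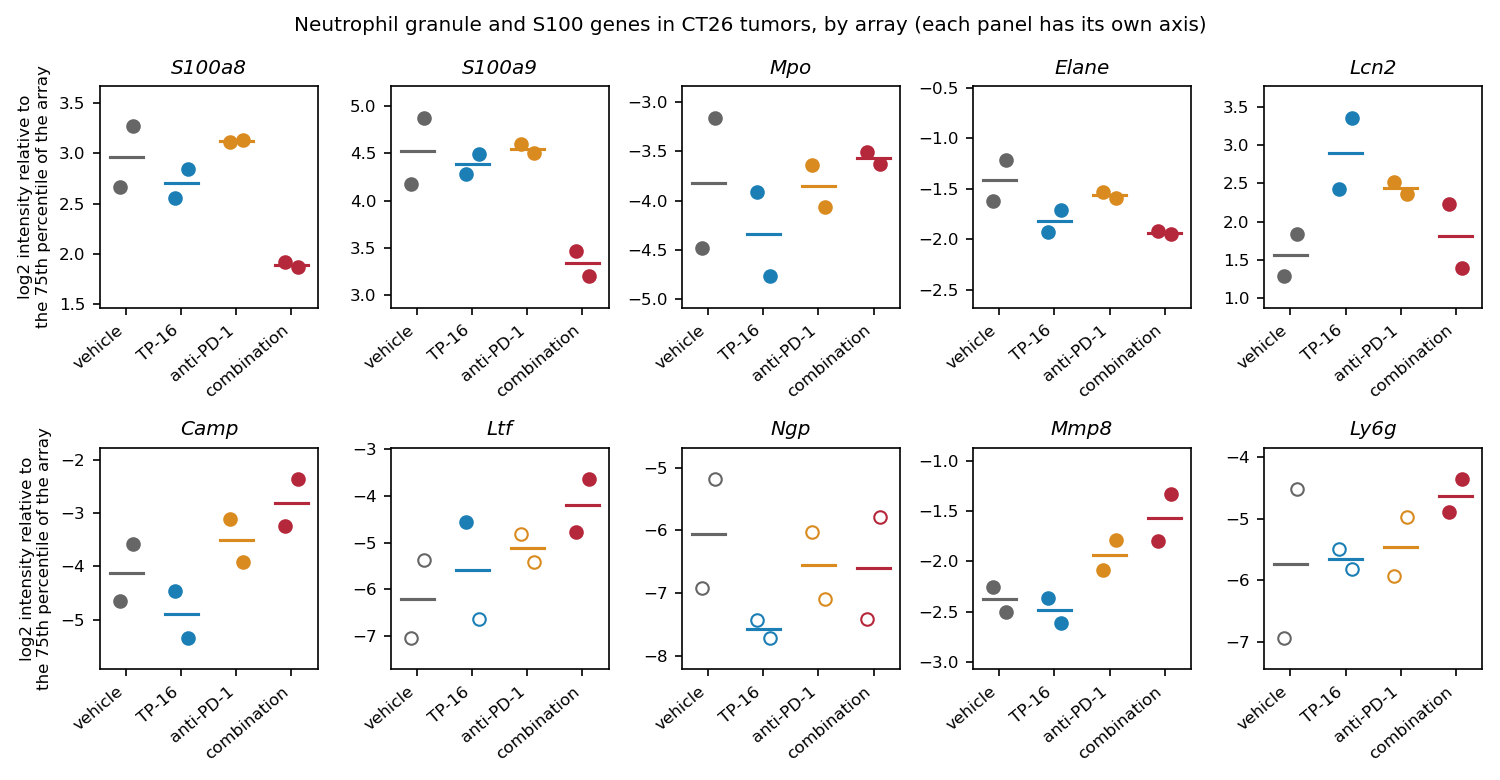
Log2 intensity relative to the 75th percentile of the array (vertical axis, with its own range in each panel) for the 10 members in the 4 groups. Points are arrays, filled where the probe was well above background and open where it was not, and lines are group means. S100a8 and S100a9 were lowest on the 2 combination arrays, and Ngp has no filled point.

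With 75th percentile scaling, combination treatment was the only one of the 3 treatments in which a member passed the threshold of a 2-fold difference from vehicle at an adjusted p (Benjamini-Hochberg, limma) of 0.05 or less. With normexp background correction, an alternative, Lcn2 also passed with TP-16, at 1.34 (limma adjusted p = 0.0426). With 75th percentile scaling, S100a8 and S100a9 fell about 2-fold in combination against vehicle, which made 2 of the 9 tested members lower and 0 higher. The direction held in all 19 alternatives run for each gene, but the call was lost in 10 of them for S100a8 and in 9 for S100a9. Among these were the methods' t-test and the fit of the compared groups alone. The fits without vehicle replicate 2 or without either combination array were also among them. They leave 1 array in a group, so only their differences are read, which were -0.77 and -0.83 without vehicle replicate 2. Over all tested genes, 13.9% were called in this comparison, 8.2% lower and 5.7% higher. All 3 comparisons with vehicle share the same 2 vehicle arrays.

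S100a8 read 2.66 and 3.26 in the vehicle arrays, 2.55 and 2.84 with TP-16, 3.11 and 3.13 with anti-PD-1 antibody, and 1.92 and 1.87 with the combination. Both combination arrays lay below the 6 others, while both single-agent groups overlapped vehicle. The difference between combination and vehicle was -1.07 (SE 0.22, n = 2 and 2, limma adjusted p = 0.0194), a 2.10-fold decrease.

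S100a9, the partner subunit, read 4.17 and 4.88 with vehicle, 4.28 and 4.49 with TP-16, 4.60 and 4.50 with the antibody, and 3.47 and 3.20 with the combination. The order of the groups was that of S100a8 at the low end, with both combination arrays again below all others. Its difference from vehicle was -1.19 (SE 0.25, limma adjusted p = 0.0210), or 2.28-fold lower. Of all tested genes, 27.9% also had both combination arrays below the other 6. In each array the pair kept nearly the same offset: the centred difference S100a9 minus S100a8 stayed between -0.19 and 0.20 log2 units.

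The median of all tested genes was itself -0.22 in combination against vehicle, and relative to it S100a8 and S100a9 differed by -0.85 and -0.96. In unscaled intensity, S100a8 read 3646 and 5592 with vehicle and 3507 and 4100 with the combination, and the groups overlapped. Unscaled S100a9 read 10349 and 17074 with vehicle and 10269 and 10338 with the combination, which lay just below. The unscaled differences were thus smaller than the scaled ones. After quantile normalization, both genes remained lower, by -0.98 (adjusted p = 0.0236) and -0.95 (adjusted p = 0.0317) in limma, just under 2-fold.

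That second scaling changed which members were called. Camp, Ltf and Ly6g were then called higher in combination against vehicle, and 0 members lower. Of these, Camp alone was readable on the vehicle arrays, and Ly6g and Ltf entered the test through the groups in which they could be read, so that their calls rest on vehicle values below background and are no support for a rise. Of all tested genes, 7.42% were higher and 3.94% lower. Which members pass the 2-fold threshold in this comparison thus depended on the scaling. With normexp, Camp was at 0.28 (limma adjusted p = 0.358) and not called, whereas S100a8 and S100a9 were at -0.97 and -1.11. The paired values are drawn in the plot of the scalings.

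**Figure D2:**
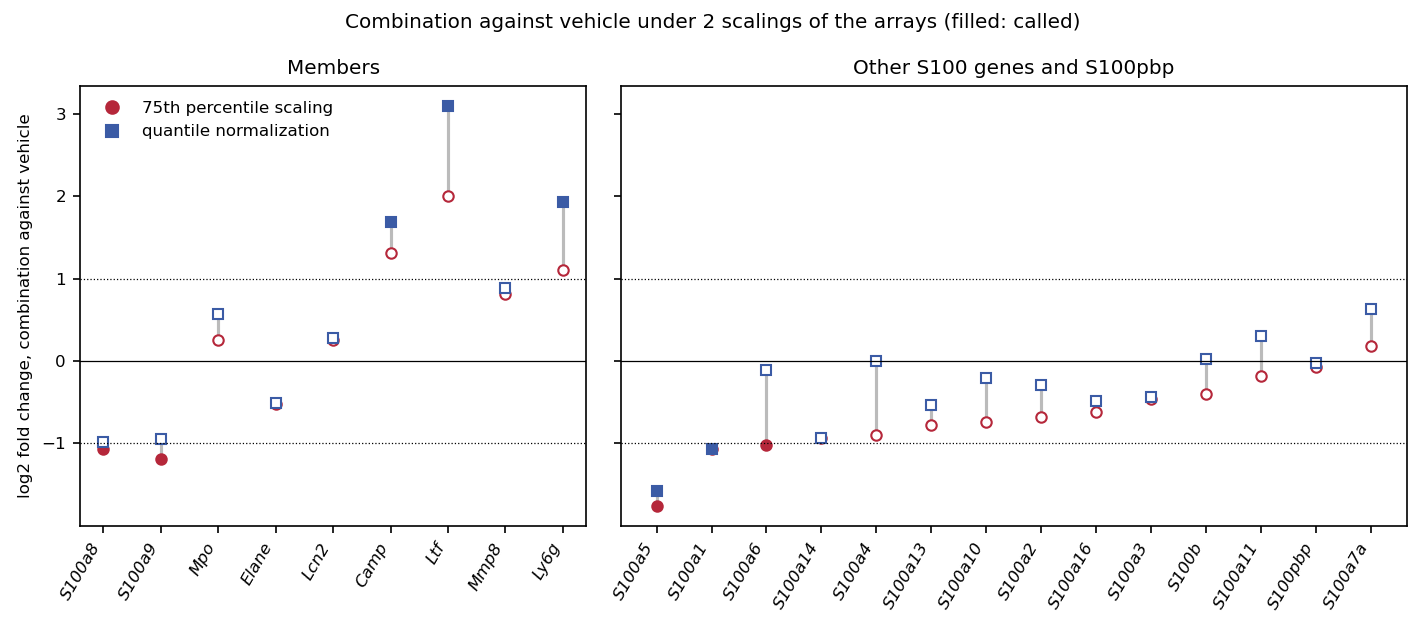
Log2 fold change of combination against vehicle (vertical axis) for the 9 tested members (left) and for 13 other S100 genes and S100pbp (right), with 75th percentile scaling (circles) and quantile normalization (squares). Filled symbols passed a 2-fold difference at a limma adjusted p of at most 0.05, dotted lines mark 2-fold, and gray lines join the 2 values of a gene. S100a8 and S100a9 were filled under the first scaling and Camp, Ltf and Ly6g under the second, of which Ltf and Ly6g were not well above background on the vehicle arrays.

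Neither of the primary granule members was called. Elane, the serine protease neutrophil elastase (chr10:79350902-79350961, mm9), read -1.62 and -1.21 with vehicle, -1.93 and -1.71 with TP-16, -1.53 and -1.59 with the antibody, and -1.92 and -1.95 with the combination. Vehicle lay above the combination arrays without overlap. The difference of the combination was -0.52 (SE 0.16, limma adjusted p = 0.0593), which is 1.43-fold and short of the threshold. Groups did not overlap in this comparison for 73% of all tested genes. Mpo, which makes hypochlorous acid from hydrogen peroxide, read -4.48 and -3.16 with vehicle and -3.51 and -3.62 with the combination. The vehicle arrays spanned the combination arrays, and the difference was 0.26 (SE 0.49, limma adjusted p = 0.712).

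Among the secondary granule genes, Camp, the precursor of the antimicrobial peptide cathelicidin, read -4.65 and -3.58 with vehicle, -4.46 and -5.33 with TP-16, -3.11 and -3.91 with the antibody, and -3.24 and -2.37 with the combination. Its highest array was combination replicate 2 and its lowest TP-16 replicate 2. The combination differed from vehicle by 1.31 (SE 0.54, limma adjusted p = 0.113) with 75th percentile scaling by 1.69 (adjusted p = 0.0433) with quantile normalization and by 0.28 (adjusted p = 0.358) with normexp. Against TP-16 it differed by 2.09 (SE 0.54, limma adjusted p = 0.143), and by 0.86 (adjusted p = 0.0978) with normexp.

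Ltf, the iron-binding lactoferrin, read -7.04 and -5.37 with vehicle, -4.55 and -6.64 with TP-16, -4.81 and -5.42 with the antibody, and -4.76 and -3.64 with the combination. Only TP-16 replicate 1 and the combination arrays were well above background, so the difference from vehicle could not be read. Ltf entered the test through the combination arrays, so its fold and p are not read as a difference. Camp, Ngp and Ltf lie in this order on chromosome 9, with 574 kb between the first pair of probes and 618 kb between the second.

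Mmp8, the neutrophil collagenase (chr9:7567968-7568026, mm9), read -2.25 and -2.50 with vehicle, -2.36 and -2.61 with TP-16, -2.08 and -1.79 with the antibody, and -1.80 and -1.33 with the combination. The means were -2.38 with vehicle, -2.48 with TP-16, -1.94 with the antibody and -1.57 with the combination. The combination was higher than vehicle by 0.81 (SE 0.21, limma adjusted p = 0.0360), a 1.75-fold difference that passed on p but not on size. At any fold, 34.5% of all tested genes passed on adjusted p in this comparison.

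Ly6g read -6.94 and -4.52 with vehicle, -5.49 and -5.82 with TP-16, -5.94 and -4.98 with the antibody, and -4.90 and -4.36 with the combination. The combination arrays were the 2 readable ones, yet vehicle replicate 2 lay between them. The dimmest readable probe stood at -4.71 and -4.44 on the vehicle arrays and at -5.22 and -5.55 on the combination arrays. The level of combination replicate 1 could thus be read on the latter only. Ly6g was tested through the 2 combination arrays, so its fold and p are not read as a difference.

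**Figure D3:**
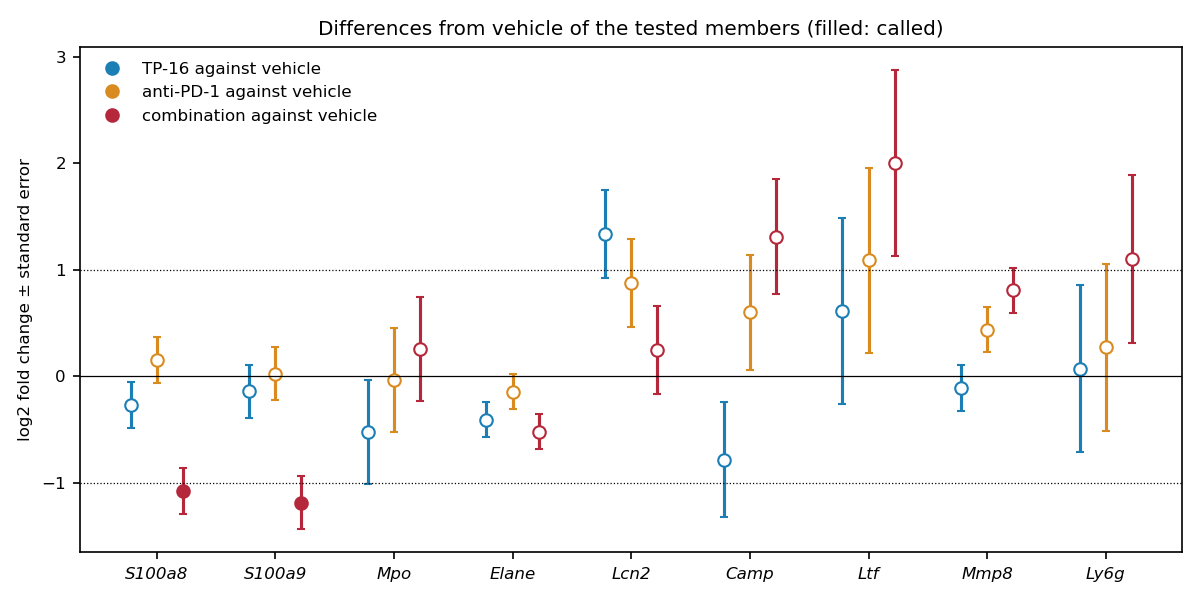
Log2 fold change from vehicle (vertical axis, error bars are standard errors of the limma fit) of the 9 tested members with TP-16, anti-PD-1 antibody and the combination. Filled points passed a 2-fold difference (dotted lines) at an adjusted p of at most 0.05. S100a8 and S100a9 with the combination, at -1.07 and -1.19, are filled, and Lcn2 is farthest from vehicle with TP-16, at 1.33. Ly6g and Ltf were not well above background on the vehicle arrays, so their points show no readable difference.

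Lcn2, the siderophore-binding protein lipocalin 2, which neutrophils store in secondary granules and epithelial cells also secrete, had the largest difference from vehicle under TP-16 alone among the 7 members readable on all arrays. It read 1.28 and 1.84 with vehicle, 2.43 and 3.36 with TP-16, 2.52 and 2.35 with the antibody, and 2.23 and 1.39 with the combination. The means were 1.56 with vehicle, 2.89 with TP-16, 2.44 with the antibody and 1.81 with the combination. With TP-16 the difference was 1.33 (SE 0.41, limma adjusted p = 0.131), and the second Lcn2 probe gave 1.52 (SE 0.37, limma adjusted p = 0.100).

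In limma, TP-16 against vehicle thus called 0 members on adjusted p, where 0.0558% of all tested genes were called. With the threshold of the methods, a 2-fold difference at an unadjusted p of at most 0.05, Lcn2 was the 1 member called, against 6.55% of all tested genes. Without TP-16 replicate 2 its difference was 0.87 (limma adjusted p = 0.329).

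Anti-PD-1 antibody against vehicle called 0 members on adjusted and 0 on unadjusted p in limma, against 0.0744% and 4.14% of all tested genes. The methods' t-test also called 0 on either p. Of the 7 members readable on all arrays, 5 were above and 2 (Mpo and Elane) below vehicle. Lcn2 differed by 0.88 (SE 0.41, limma adjusted p = 0.399) and S100a8 by 0.16 (SE 0.22, adjusted p = 0.755).

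The combination was then set against each single agent, comparisons that share the combination arrays. Against anti-PD-1 antibody, S100a8 differed by -1.23 (SE 0.22, limma adjusted p = 0.0770) and S100a9 by -1.21 (SE 0.25, limma adjusted p = 0.0771). Neither was called on adjusted p, as 0.014% of all tested genes were. Both were called on unadjusted p (4.76% of all tested genes), and both passed on adjusted p when the dim probes were removed from the test (2 members called).
Against TP-16, 0 members passed on adjusted p in limma, and 0% of all tested genes did. On unadjusted p, 3 members were called, against 4.9% of all tested genes: S100a9 at -1.05 (SE 0.25), Lcn2 at -1.08 (SE 0.41) and Camp at 2.09 (SE 0.54), which was under 2-fold with normexp.

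The departure from additivity (the difference of the combination from vehicle less the differences of both single agents) was not called for any member on adjusted p in limma (0 of 9, and 0% of all tested genes). On unadjusted p, where 3.26% of all tested genes were called, Lcn2 departed by -1.96 (SE 0.58, limma adjusted p = 0.574) and S100a9 by -1.07 (SE 0.35, limma adjusted p = 0.602). For Lcn2 the differences from vehicle were 1.33 with TP-16, 0.88 with the antibody and 0.25 with the combination. For S100a9 the single agents were near vehicle and the combination was below. The second Lcn2 probe departed by -2.03 (SE 0.53, limma adjusted p = 0.531).

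Other genes of the neutrophil program did not follow the S100 pair as a block in combination against vehicle. Over all tested genes, 5.7% were called higher and 8.2% lower in this comparison. Of 4 other tested primary granule genes, 1 rose, Ctsc, the dipeptidyl peptidase that activates the granule serine proteases (1.66, limma adjusted p = 0.0159). Prtn3, Prss57, Ms4a3 and Bpi were not well above background in any group. Among 8 other secondary and tertiary granule genes, 2 were called higher, Adam8, a sheddase (1.13, limma adjusted p = 0.0123), and Mmp25, a membrane-bound metalloprotease. Mmp25 was readable on 0 vehicle arrays, so its difference could not be read. The medians of these lists were 0.55 and 0.66, beside -0.22 over all tested genes. The second median counts in Mmp25, so no size is drawn from it.

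Among 22 other genes of the neutrophil surface and cytoplasm, 4 rose and 3 fell, beside 5.7% and 8.2% of all tested genes. The largest rises were those of Slc2a3, a glucose transporter (1.73, limma adjusted p = 0.0292), and Fpr2, a formyl peptide receptor (1.67, adjusted p = 0.0383). The falls were those of the stefin A genes Stfa2 (-1.44, adjusted p = 0.0325), Stfa2l1 (-1.37, adjusted p = 0.0118) and Gm5483 (-1.06, adjusted p = 0.0128), protease inhibitors whose close sequences may share signal. Csf3r and Cxcr2, the receptors for G-CSF and for CXC chemokines, differed by -0.55 and -0.15 without passing the test.

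Of 8 transcription factors of granulocyte development, 4 rose and 0 fell, beside 5.7% and 8.2% of all tested genes. Gfi1, a repressor needed for neutrophil differentiation, differed by 2.38 (limma adjusted p = 0.0213), and Myb, a factor of proliferating progenitors, by 1.53 (adjusted p = 0.0261). Cebpa (limma adjusted p = 0.0119) and Cebpe (1.09, adjusted p = 0.0204), which drive early and late granule gene transcription, also rose. With normexp background correction 2 of these were called, and Myb was 0.59.

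Of 6 tested recruitment and growth factor genes, 2 fell, beside 8.2% of all tested genes. They were Ppbp, a platelet chemokine (-1.21, limma adjusted p = 0.0398), and Cxcl1, a ligand of CXCR2 (-1.05, adjusted p = 0.0465). After quantile normalization they were at -1.14 (adjusted p = 0.0700) and -1.05 (adjusted p = 0.0552), and neither was called. Csf3, Il17a and Il23a were not well above background in any group. The 4 tested receptor genes of S100A8/A9 gave 0 calls, with Myd88, the adaptor of Toll-like receptors, at 0.74 (adjusted p = 0.0345) and Ly96, the partner of TLR4, at -1.33 (adjusted p = 0.376).

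**Figure D4:**
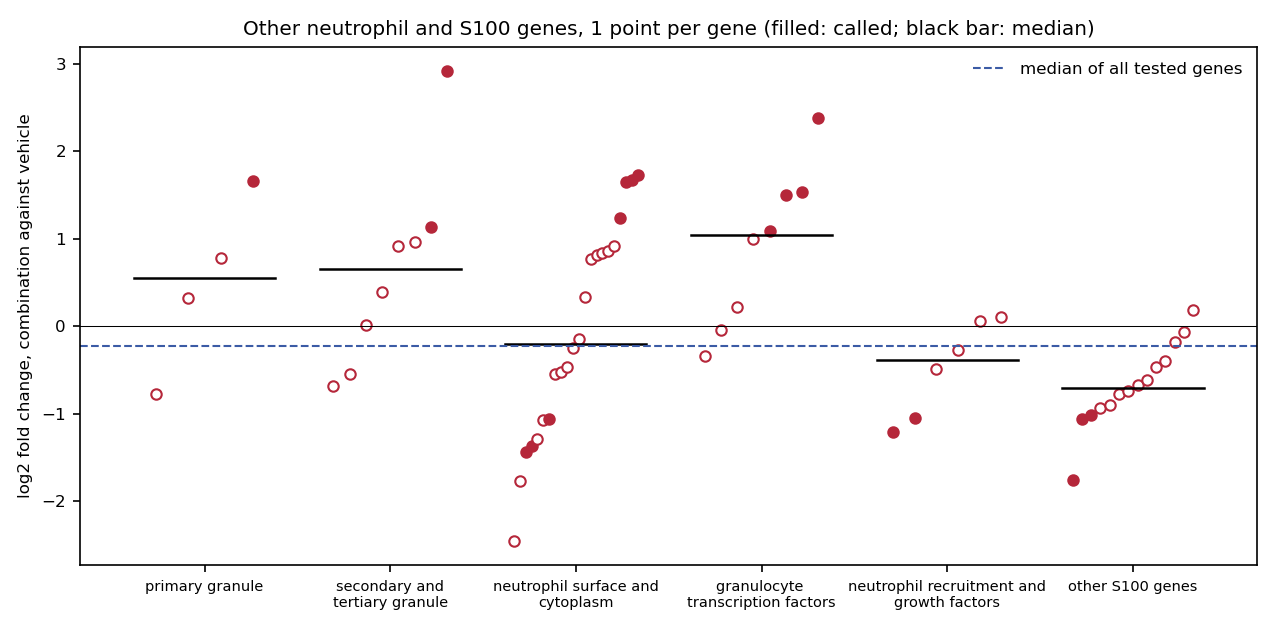
Log2 fold change of combination against vehicle (vertical axis) for tested genes of 6 lists, members left out. Each point is a gene, filled where called, black bars are list medians and the dashed line is the median of all tested genes, -0.22. The granulocyte transcription factors had a median of 1.04 and the other S100 genes one of -0.71. Mmp25, of the secondary and tertiary granule list, was readable on 0 vehicle arrays, so its point shows no readable difference.

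S100a8 and S100a9 were not the only S100 genes that were lower with the combination. Of 14 further tested genes (13 S100 genes and S100pbp, which encodes a binding protein of S100P), 13 had a negative difference and 3 fell: S100a5 (-1.76, limma adjusted p = 0.0251), S100a1 (-1.06, adjusted p = 0.0120) and S100a6 (-1.02, adjusted p = 0.0112). Their median was -0.71, beside -0.22 over all tested genes, of which 8.2% were called lower. After quantile normalization 10 were negative and 3 positive, S100a4 was at 0, the median was -0.25, and S100a5 and S100a1 were called. The median over all tested genes was then -0.047, and 3.94% of them were called lower. S100a4 was the brightest probe (rank 1) on all 8 arrays and S100a6 held ranks 4 to 14, and quantile normalization gives probes of equal rank the same value, so the 0 of S100a4 is set by the method and the -0.11 of S100a6 nearly so. S100a8 held ranks 3963 to 6817 and S100a9 ranks 1840 to 3670 of 56567 probes. With normexp, S100a4 and S100a6 were at -0.83 and -0.95.

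Genes whose profile over the 8 arrays was most like that of the S100 pair were sought among 18310 genes readable on all arrays, by the root mean square difference of centred log2 values. The nearest were Gm31134 (0.121), LOC433461 (0.126), Gm8025 (0.128), Dvl3 (0.164) and NAP112345-1 (0.165), against a standard deviation of 0.52 for the pair itself. Nearest to the mean of the 7 members readable on all arrays were Spink2 (0.0658), Ddah1 (0.0812), Psme2b (0.0940), LOC105244413 (0.101) and Olfr1350 (0.109). That mean had a standard deviation of 0.22, since its members differed in opposite directions.

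Markers of other cell types also differed between arrays, and their part in the member results was not tested. Of 10 tested epidermis genes, 0 were called in any of the comparisons, and the brightest, Trp63 and Krt10, were at 0.31 and -0.78 with the combination. The summed log2 level was 5.21 in TP-16 replicate 2 and 5.66 in anti-PD-1 replicate 2 and lay between 2.57 and 3.06 on the 6 other arrays. Krt14, the basal keratinocyte keratin, read 3.17 and 3.61 on those 2 arrays and between -5.53 and -0.97 elsewhere. Stfa3 and Stfa1, listed with the neutrophil genes, were likewise highest there, at 0.99 and 2.76 for Stfa3 and at 1.96 and 2.75 for Stfa1. Lcn2 was highest in TP-16 replicate 2 but not in anti-PD-1 replicate 2, and S100a8 read 3.11 and 3.13 on the anti-PD-1 arrays. Without these 2 arrays, S100a8 and S100a9 had the same differences between combination and vehicle by construction, with limma adjusted p = 0.0764 and 0.0827, and 0 members were called.

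**Figure D5:**
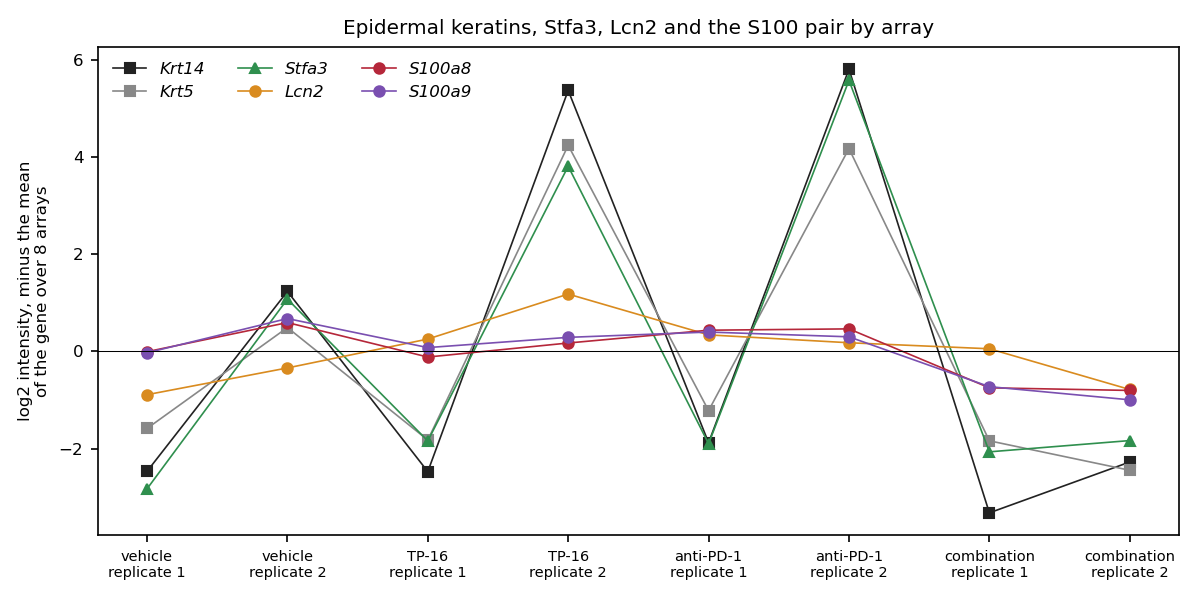
Log2 intensity minus the mean of each gene over the 8 arrays (vertical axis) for the keratins Krt14 and Krt5, Stfa3, Lcn2, S100a8 and S100a9 on each array. Keratins and Stfa3 peak in TP-16 replicate 2 and anti-PD-1 replicate 2, the S100 pair is lowest on the 2 combination arrays, and Lcn2 peaks in TP-16 replicate 2 only.

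With the combination, 5.7% of all tested genes were called higher and 8.2% lower. Of 8 tested red blood cell genes, 8 fell with the combination (median -2.25), with the globin genes Hbb-bt at -2.53 and Hbb-b1 at -2.49 (limma adjusted p = 0.0112 for each). The summed red blood cell level was 8.67 to 9.31 with vehicle and 6.54 to 7.68 on the 6 treated arrays. Of 12 macrophage genes 5 rose and 0 fell, led by Adgre1, a macrophage surface receptor (2.07, limma adjusted p = 0.0143), and Mertk, a receptor for dying cells (1.23, adjusted p = 0.0240). Cd14 (-0.49, limma adjusted p = 0.0384), Mrc1 (-0.20) and Marco (-0.15) were on the other side of vehicle by less than 2-fold. The summed macrophage level was 7.31 to 7.72 with vehicle, 7.52 to 7.71 with the single agents and 8.15 to 8.65 with the combination. Of 9 monocyte genes 2 rose, Ly6c2 (2.12, limma adjusted p = 0.0319) and Ly6c1 (2.02, adjusted p = 0.0342), whose sequences are close. Itgam (-0.72), F13a1 (-0.25) and Fn1 (-0.20) were on the other side of vehicle without passing the test. Monocytes are a further source of S100a8 and S100a9, and the summed level of the list was 7.74 to 8.11 with vehicle, 8.36 to 8.81 with the single agents and 8.78 to 8.90 with the combination.

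Of 9 T-cell genes 5 rose (median 2.85), among them the adhesion receptor Cd2 (3.21, limma adjusted p = 0.0144) and Cd8a, a chain of the CD8 coreceptor (3.78, adjusted p = 0.0484), the latter with adjusted p = 0.0576 after quantile normalization. The list had a summed level of 1.74 and 3.49 with vehicle, 3.91 to 4.31 with the single agents and 4.61 to 5.39 with the combination. Of 7 mast cell and basophil genes 5 rose (median 1.43), led by the mast cell proteases Cpa3 (1.92) and Tpsb2 (1.67, limma adjusted p = 0.0112 for each), with a summed level of 3.20 to 3.70 with vehicle, 3.53 to 3.85 with TP-16, 4.53 to 4.82 with the antibody and 4.85 to 5.09 with the combination. Of 5 tested eosinophil genes 3 were called higher, with Ear2, a ribonuclease, at 2.87 (limma adjusted p = 0.0112), while the granule protein genes Epx and Prg2 were not well above background in any group. Siglecf, 1 of the 3 called, was readable on 0 vehicle arrays, so its difference could not be read. Il5ra, at -0.62 (limma adjusted p = 0.0600), was on the other side of vehicle without passing the test. The summed eosinophil level was -2.02 to -1.66 with vehicle, -0.71 to -0.24 with the single agents and 0.16 to 0.37 with the combination. With normexp Ear2 was the 1 eosinophil gene called, at 1.97. Of 6 tested epithelial genes 2 were called lower, Krt18 (-1.38, limma adjusted p = 0.0204) and Cldn4. Cldn4 was readable on the vehicle arrays only and entered the test through them, so its difference could not be read. Cdh1, at 0.83 (limma adjusted p = 0.218), was on the other side of vehicle without passing the test. The summed epithelial level was 2.59 to 3.13 with vehicle, 2.21 to 2.54 with the single agents and at most 1.78 with the combination. Gfi1 and Myb are also transcribed in T cells. The part of these lists in the differences of the granulocyte transcription factors and of the S100 genes was not tested. Of the 7 members readable on all arrays, all except Mmp8 were higher in vehicle replicate 2 than in vehicle replicate 1, against 57.5% of all tested genes. These 2 arrays set the spread of the vehicle group.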

How the data were processed

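RNA from CT26 tumors (4 groups of 2 samples, grouped and numbered by the labels) was hybridised to 1-color Agilent SurePrint G3 mouse arrays. The methods give TRIzol extraction and the labels a column kit. Nothing says that samples came from separate mice, so p-values measure the spread between these samples, which may be technical. The authors deposited the scanner output (Agilent Feature Extraction 10.7.1.1), with spot intensity already background-subtracted and detrended, and a series table of log2 values from GeneSpring whose normalization is not named. Its scale was log2, its columns shared 1 median (5.16), centring of genes was not seen, and its sorted values differed between columns by at most 0.00115, as they do after quantile normalization. It is therefore no alternative separate from quantile normalization.

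Control spots and 959 spots marked as outliers were left out (38 probes lost) and log2 intensities were centred on the 75th percentile of each array. A probe was tested if some group had it well above background in both samples (31912 of 56567). All 8 arrays entered 1 fit in limma 3.58.1 (R 4.3.3, empirical Bayes moderation, no block), with p-values adjusted over all tested probes. Data were handled with data.table (version 1.17.8), Python 3.11.15, pandas 2.3.3, numpy 2.4.6, statmod 1.5.0 and matplotlib 3.10.9. The number of arrays limits the precision. Differences are given as log2 fold change, and a call needs a fold of at least 2. The fits were tested on simulated data.

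Members and gene lists were chosen with earlier results of these data known. Named were all members, the 2 largest rises and falls called in each list with the combination (without calls, the 2 brightest genes), and the 5 genes nearest in profile. Others (S100a4, S100a6, Gm5483, Cldn4, Epx, Prg2, Cebpa, Cebpe, Csf3r, Cxcr2, Krt14, Krt18, Epcam, Stfa1, Stfa3, Cd14, Mrc1, Marco, Itgam, F13a1, Fn1, Il5ra, Cdh1 and genes below background) were singled out after their values were seen. Alternatives were quantile normalization, normexp with an offset of 50, other filters, the series table, the compared groups alone, trended and robust moderation, a replicate block, the mean of probes, the methods' t-test and leaving out arrays. Omission of both arrays high in epidermis genes was added after seeing the data.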

Additional observations from a re-analysis of the deposited data

How the results depend on the processing

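In combination against vehicle, 2 members were called (S100a8 and S100a9). The count was 1 (S100a9) with normexp background correction, and 0 with no filter on dim probes, with the compared groups alone, with the methods' t-test at adjusted or unadjusted p, and without both arrays high in epidermis genes. Leaving out 1 array at a time gave 0 to 2, namely 1 (Ly6g) without vehicle replicate 2, 1 (Mmp8) without combination replicate 1 and 0 without combination replicate 2. Quantile normalization and the series table, which share 1 kind of scaling, gave 3, none of them the same genes (Camp, Ltf and Ly6g). S100a8 and S100a9 were negative in all 19 alternatives run for each, from -1.37 to -0.77 and from -1.54 to -0.83, with limma or t-test adjusted p from 0.00615 to 0.222 and from 0.00627 to 0.240. For TP-16 against vehicle, normexp gave 1 (Lcn2), as did the unadjusted p. For combination against TP-16, the unadjusted p gave 3 and the methods' t-test at unadjusted p 1 (S100a9). For combination against anti-PD-1, normexp, only probes readable on all arrays, trended and robust moderation, the unadjusted p and the methods' t-test at unadjusted p each gave 2 (S100a8 and S100a9). For the departure from additivity, the unadjusted p gave 2. Replicate numbers did not pair the samples (correlations of deviations from -0.19 to 0.29), and with the replicate number as a block the count for combination against vehicle was 2 and the log2 difference -1.07 for S100a8. No slide block was run, since all arrays shared 1 slide.

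Differences from vehicle that were small or near background changed sign in some settings, and the cause was not tested. The values of Ly6g and Ltf given here are set against vehicle arrays on which neither could be read, so no size or direction is drawn from them. With normexp, Ly6g was at -0.47 (TP-16), -0.13 (anti-PD-1) and -0.36 (combination), Mpo at -0.30 (combination) and Ltf at -0.19 (TP-16). With quantile normalization and the series table, S100a9 with TP-16 was at 0.0030 and 0.0041, Mpo with anti-PD-1 at 0.18 and 0.19, and Mmp8 with TP-16 at 0.053 and 0.054. Without both epidermis-high arrays, Ly6g and Mpo with anti-PD-1 were at -0.21 and 0.18 and Mmp8 with TP-16 at 0.014.
Leaving out 1 array at a time moved, with TP-16, S100a8 from -0.57 to 0.034, S100a9 from -0.49 to 0.21, Ly6g from -1.13 to 1.28, Mpo from -1.19 to 0.14, Ltf from -0.43 to 1.66 and Mmp8 from -0.23 to 0.015. Leaving out 1 array at a time moved, with anti-PD-1, S100a8 from -0.14 to 0.46, S100a9 from -0.33 to 0.38, Ly6g from -0.93 to 1.48, Mpo from -0.70 to 0.63 and Elane from -0.35 to 0.058. Leaving out 1 array at a time moved, with the combination, Ly6g from -0.10 to 2.31, Mpo from -0.41 to 0.92 and Lcn2 from -0.17 to 0.67. Ly6g was well above background on 2 arrays, Ltf on 3 and Ngp on 0, so their other values only bound the level from above.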
